A study of Homo sapiens with 4 samples.

Results

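The 10 genes described here are transcriptional outputs and feedback regulators of the RAS-ERK pathway, taken from a fixed list of symbols. They are the dual-specificity phosphatase genes *DUSP4*, *DUSP5* and *DUSP6*, the Sprouty genes *SPRY1*, *SPRY2* and *SPRY4*, the Sprouty-related genes *SPRED1* and *SPRED2*, and the ETS transcription factor genes *ETV4* and *ETV5*. All 10 were found among the 58522 genes of the expression table, and all 10 passed the filter on low counts that left 16158 genes for testing. RNA-seq was performed on Ishikawa cells, an established human endometrial adenocarcinoma line with epithelial character. Cells of the *CDYL*-sh group (2 libraries) carried a short hairpin RNA against *CDYL*, a chromodomain corepressor, and cells of the control group (2 libraries) carried a negative control hairpin. The methods describe delivery of the hairpins with polybrene followed by puromycin selection, so both groups carried a vector and had been selected. The hairpin used in each *CDYL*-sh library is not stated, nor whether replicate libraries were grown as independent cultures. The titles of the *CDYL*-sh libraries end in CDYL_sh1 and CDYL_sh2, and those of the controls in control1 and control2. These numbers, called replicates below, may in *CDYL*-sh also mark the hairpins that the supplement names CDYL-sh1 and CDYL-sh2. A difference between hairpins and one between replicates cannot be told apart, so p-values measure only the spread between these libraries.

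Growth factor receptors activate RAS, which starts the RAF, MEK and ERK kinase cascade. Active ERK induces genes that switch it off again. DUSP6 dephosphorylates ERK in the cytoplasm and DUSP5 does so in the nucleus, while the nuclear DUSP4 also acts on other MAP kinases. Sproutys restrain signalling between receptors and RAF, and SPREDs bring the RAS inhibitor neurofibromin to the membrane. ETV4 and ETV5 belong to the PEA3 group of ETS factors. Transcripts of all these genes are widely used as readouts of ERK output, although each also has other inputs.

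The total expected count was 27451007 and 22341852 in the *CDYL*-sh libraries, against 27688447 and 26981051 in the control libraries. *CDYL* itself stood at 11.4 and 9.70 CPM (counts scaled to a common library size by TMM) in *CDYL*-sh, against 50.4 and 53.0 CPM in control. This is a log2 fold change of -2.28 ± 0.13 (SE, with an adjusted p of 4.26e-09 by the quasi-likelihood test of edgeR), so the label of the knockdown holds in both libraries. The 8 epithelial markers examined summed to 3440 and 3655 CPM in *CDYL*-sh, against 3652 and 4003 CPM in control, and within this list *KRT19* and *KRT7* were higher, *KRT18* was lower and 5 did not pass. Of the 7 stromal markers, *DCN* and *COL3A1* had no count in any library, and the list summed to between 16.0 and 17.95 CPM in *CDYL*-sh and between 23.8 and 26.1 CPM in control, with *COL1A1* lower in *CDYL*-sh. The 4 endothelial markers summed to between 7.93 and 8.70 CPM in *CDYL*-sh and between 3.77 and 4.26 CPM in control. Of these *PECAM1* was higher, at 5.21 and 6.34 CPM in *CDYL*-sh and 1.62 and 1.96 CPM in control, while *CDH5* stood at 0.25 and 0.32 CPM in *CDYL*-sh and 0.61 and 0.87 CPM in control without passing (edgeR adjusted p = 0.0897), and *KDR* was at or near 0. The immune list summed to between 18.2 and 20.9 CPM in *CDYL*-sh and between 7.78 and 11.7 CPM in control, nearly all of it *CD68*, while *CD3E* and *MS4A1* were at 0. The part of these markers in the results below was not tested.

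In *CDYL*-sh cells the 3 Sprouty genes, *DUSP6* and *ETV5* were lower and *DUSP4* was higher. *DUSP5*, *SPRED1*, *SPRED2* and *ETV4* did not pass the test. Thus 5 of the 10 genes fell and 1 rose, with 0.05 as the threshold on edgeR p-values adjusted over the whole table. Over all 16158 genes tested, 12.1% were lower, 13.6% were higher and 25.7% passed in either direction. The 10 genes had a median log2 change of -0.28, against 0.01 over all genes tested. They were chosen with earlier results of these data known, so these shares and medians are a description only. RNA was measured in bulk, so fewer cells with a transcript and less of it per cell cannot be told apart.

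**Figure D1:**
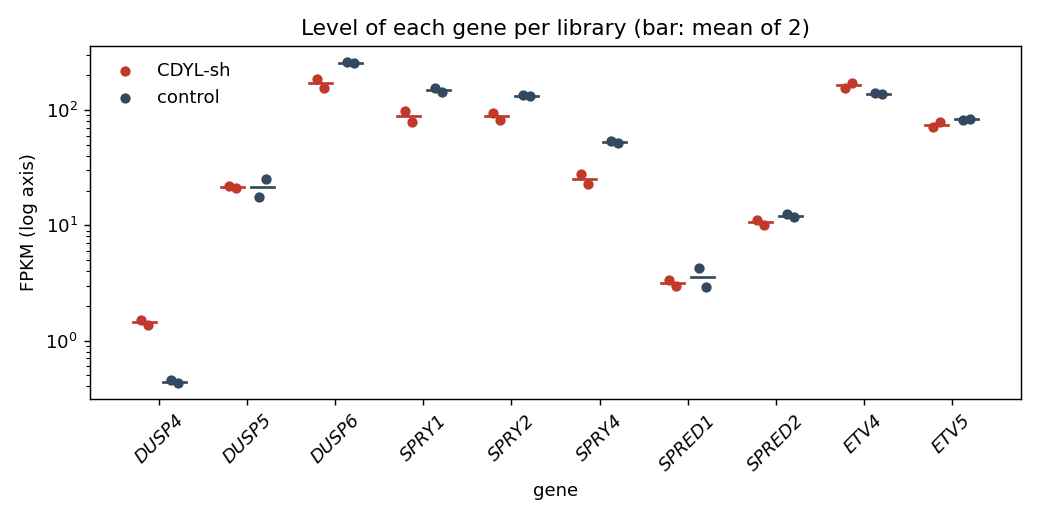
FPKM (log axis) of the 10 genes in each library, *CDYL*-sh in red to the left of control in dark blue, with a bar at the mean of 2 libraries. *DUSP6* is at 156 to 185 FPKM in *CDYL*-sh and at 255 to 262 FPKM in control, while *DUSP4* is at the bottom of both groups.

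The genes spanned more than 2 orders of magnitude in level. Measured per length as FPKM, *DUSP6* was the most abundant in *CDYL*-sh, with 185 and 156 FPKM, and *ETV4* was next with 157 and 172 FPKM. The ranges of these 2 genes overlapped. *SPRY1* (97.7 and 79.6 FPKM) and *SPRY2* (93.5 and 82.6 FPKM) also overlapped with each other in *CDYL*-sh, and *ETV5*, *SPRY4*, *DUSP5*, *SPRED2*, *SPRED1* and *DUSP4* followed with no overlap between neighbours. In control the order was *DUSP6* (262 and 255 FPKM), *SPRY1* (155 and 144 FPKM), *ETV4* (140 and 137 FPKM), *SPRY2* (136 and 132 FPKM), *ETV5* and then the same genes as in *CDYL*-sh, with no overlap between neighbours. *DUSP6* therefore stood clear of *ETV4* in control and not in *CDYL*-sh. The FPKM ratio of *DUSP6* to *ETV4* was 1.18 and 0.91 in *CDYL*-sh, against 1.88 and 1.86 in control. Summed over the 10 genes, the level was 671 and 627 FPKM in *CDYL*-sh, against 864 and 843 FPKM in control.

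*SPRY4*, which acts on the steps between growth factor receptors and RAF, had the largest decrease of the 10 genes. It measured 107 and 92.0 CPM in *CDYL*-sh, against 205 and 195 CPM in control. Both *CDYL*-sh libraries were below both control libraries, and the gap was far wider than the distance between replicates. The mean was 2.02-fold lower in *CDYL*-sh cells, which is a log2 change of -1.01 ± 0.11 (SE, edgeR adjusted p = 5.81e-06). *SPRY4* (ENSG00000187678) is encoded at chr5:142310427-142326455 of GRCh38 (minus strand).

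*SPRY1*, a close relative that is needed for normal receptor signalling in kidney development in mice, measured 134 and 118 CPM in *CDYL*-sh, against 206 and 195 CPM in control. The groups did not overlap. The log2 fold change was -0.67 ± 0.11 (SE, edgeR adjusted p = 0.000213). *SPRY2*, whose product binds the ubiquitin ligase CBL, measured 166 and 152 CPM in *CDYL*-sh, against 245 and 243 CPM in control. The control libraries nearly coincided and both *CDYL*-sh libraries lay below them. Its log2 fold change was -0.61 ± 0.10 (SE, edgeR adjusted p = 0.000331). *SPRY1* (ENSG00000164056) is encoded at chr4:123396795-123403760 (plus strand), and *SPRY2* (ENSG00000136158) at chr13:80335976-80341126 (minus strand). In each of the 3 Sprouty genes the *CDYL*-sh replicate 2 library was the lower of its group.

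Together the 3 Sproutys made up 219 and 185 FPKM in *CDYL*-sh, against 345 and 327 FPKM in control. The CPM ratio of *SPRY1* to *SPRY2* was 0.81 and 0.78 in *CDYL*-sh, against 0.84 and 0.80 in control, and the groups overlapped. The CPM ratio of *SPRY1* to *SPRY4* was 1.26 and 1.28 in *CDYL*-sh, against 1.004 and 0.997 in control, with no overlap. Whether the decrease of *SPRY4* differed from that of *SPRY1* was not tested.

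*DUSP6*, the cytoplasmic phosphatase specific for ERK, measured 446 and 407 CPM in *CDYL*-sh, against 596 and 592 CPM in control. The groups did not overlap, and the control libraries lay closer together than the *CDYL*-sh libraries. It was 1.39-fold lower in *CDYL*-sh cells, which is a log2 change of -0.48 ± 0.11 (SE, edgeR adjusted p = 0.00319). *DUSP6* (ENSG00000139318) is encoded at chr12:89347235-89352501 (minus strand). It shares 1105 exonic bases with ENSG00000274021, an antisense long noncoding RNA, and the expected counts of these genes are not whole in any library, while their sums are whole, at 12535 and 9011 in *CDYL*-sh and 16690 and 15832 in control. Some reads were therefore divided between them, and the antisense gene held between 0.376% and 0.437% of the sum in *CDYL*-sh and between 0.607% and 0.793% in control. These shares are the estimates behind the deposited counts. Whether the counting used strand is not stated, and without strand the reads of the 2 genes cannot be told apart.

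*DUSP4*, a nuclear phosphatase that itself responds to ERK, went the other way. It had 216 and 160 counts in *CDYL*-sh, against 65 and 60 counts in control. Scaled by depth these are 7.71 and 7.25 CPM in *CDYL*-sh, against 2.33 and 2.26 CPM in control, and the groups did not overlap. The mean was 3.26-fold higher in *CDYL*-sh cells, which is a log2 change of 1.67 ± 0.22 (SE, edgeR adjusted p = 3.66e-05). The level remained low, at 1.5 and 1.37 FPKM in *CDYL*-sh and 0.45 and 0.43 FPKM in control. On the log2(FPKM + 1) scale its log2 fold change was 0.76 and did not pass limma's test (adjusted p = 0.0894), and with a pseudocount of 0.1 it was 1.51 (adjusted p = 0.0985 from limma). *DUSP4* (ENSG00000120875) is encoded at chr8:29333064-29350684 (minus strand). The FPKM ratio of *DUSP6* to *DUSP4* was 123 and 114 in *CDYL*-sh, against 581 and 593 in control.

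*DUSP5*, the nuclear phosphatase specific for ERK, measured 48.8 and 47.9 CPM in *CDYL*-sh, against 39.3 and 57.4 CPM in control. Both *CDYL*-sh libraries lay between the control libraries. The log2 fold change was 0.002 with a 95% interval from -0.30 to 0.30 (adjusted p = 0.995 from edgeR), so a change within that range remained compatible with these libraries. The estimate turned with the control library used, at -0.26 without control replicate 1 and 0.30 without control replicate 2, neither past the test. *DUSP5* (ENSG00000138166) is encoded at chr10:110497907-110511533 (plus strand).

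**Figure D2:**
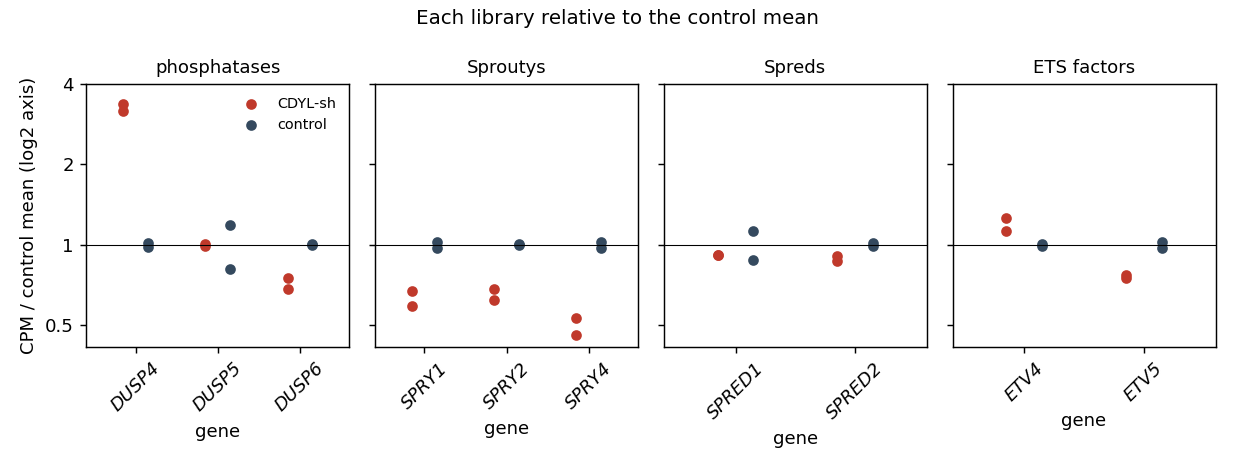
CPM of each library divided by the control mean of its gene (log2 axis), *CDYL*-sh in red to the left of control in dark blue, grouped as phosphatases, Sproutys, Spreds and ETS factors. The Sproutys, the Spreds, *DUSP6* and *ETV5* lie below 1 in both *CDYL*-sh libraries, and *DUSP4* and *ETV4* lie above it. Of these the Spreds and *ETV4* did not pass the test.

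*SPRED1* and *SPRED2*, which dampen RAS activity through neurofibromin, showed no change past the test. *SPRED1* measured 22.6 and 22.6 CPM in *CDYL*-sh, against 27.8 and 21.7 CPM in control, and the groups overlapped. Its log2 fold change was -0.13, with a 95% interval from -0.42 to 0.16 (adjusted p = 0.531 from edgeR). It was 0.05 without control replicate 1 and -0.30 without control replicate 2. *SPRED2* measured 37.6 and 35.8 CPM in *CDYL*-sh, against 41.8 and 40.8 CPM in control. Here both *CDYL*-sh libraries were below both control libraries, but the log2 fold change of -0.17 (95% interval -0.41 to 0.07) did not pass (adjusted p = 0.305 from edgeR). Over all genes tested, the CPM of the groups did not overlap in this direction for 31.8%. *SPRED1* (ENSG00000166068) is encoded at chr15:38252836-38357249 (plus strand), and *SPRED2* (ENSG00000198369) at chr2:65310851-65432637 (minus strand).

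Of the 2 ETS factors, *ETV5* fell and *ETV4* did not pass the test. *ETV5* measured 192 and 197 CPM in *CDYL*-sh, against 248 and 262 CPM in control, with no overlap. Its log2 fold change was -0.39 ± 0.10 (SE, edgeR adjusted p = 0.00874). Without control replicate 2 it was -0.35 and missed the threshold (edgeR adjusted p = 0.0632, while 19 alternatives gave 0.000214 to 0.398). *ETV4* measured 272 and 303 CPM in *CDYL*-sh, against 239 and 243 CPM in control. Both *CDYL*-sh libraries were above both control libraries, as for 32.6% of all genes tested. The log2 fold change was 0.25 (95% interval 0.03 to 0.47) with an unadjusted p of 0.0262 and an adjusted p of 0.0833 from edgeR. The CPM ratio of *ETV4* to *ETV5* was 1.42 and 1.53 in *CDYL*-sh, against 0.96 and 0.92 in control. The difference between these paralogs in their response was not tested. *ETV4* (ENSG00000175832) is encoded at chr17:43527844-43579620 (minus strand) and shares 68 exonic bases with *DHX8* on the other strand. *ETV5* (ENSG00000244405) is encoded at chr3:186046314-186110318 (minus strand) and shares 164 exonic bases with *DGKG* on the same strand. All counts of both ETS genes were whole numbers.

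**Figure D3:**
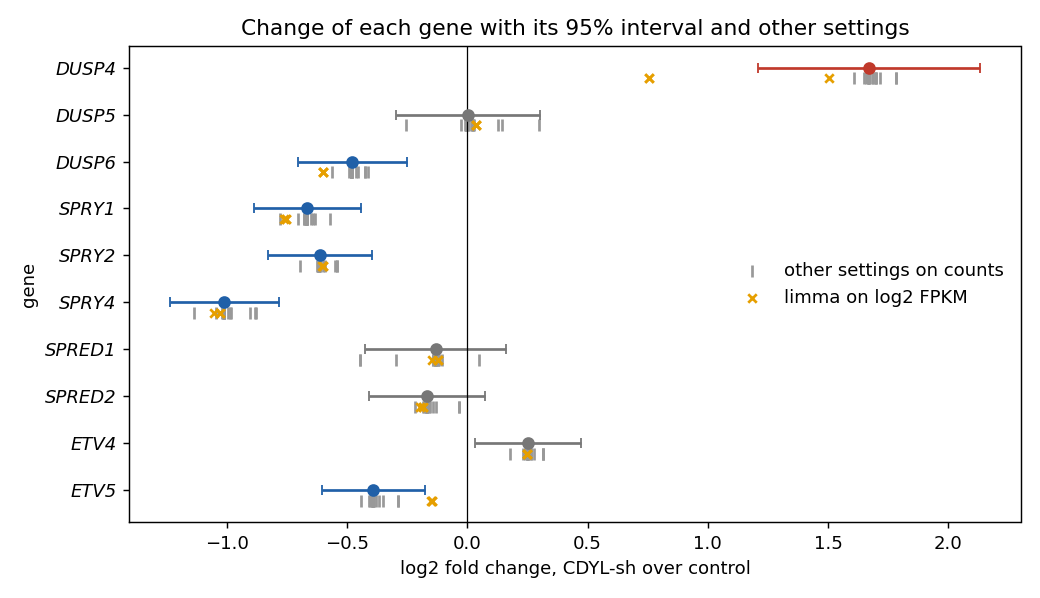
Log2 fold change of each gene, *CDYL*-sh over control, with its 95% interval from edgeR (red higher, blue lower, grey not past the test). Grey ticks below each point are the other settings on counts and orange crosses are limma on log2 FPKM, which for *ETV5* gave -0.15 and for *DUSP4* between 0.76 and 1.51.

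The 2 deposited measures gave different sizes for *ETV5*. In FPKM it stood at 71.6 and 78.4 in *CDYL*-sh, against 82.5 and 83.7 in control, and limma on log2(FPKM + 1) gave a log2 fold change of -0.15 (adjusted p = 0.337). An FPKM divides the count by a gene length that the estimating program can set in each library from the transcripts it assigns. The length implied by the count, the FPKM and the total count was 2737 and 2489 nucleotides in *CDYL*-sh, against 3031 and 3083 nucleotides in control. The implied length of *ETV5* was thus 0.855 of the control value, and among 12614 genes with at least 1 FPKM in every library 4.71% had a ratio as low. *DUSP6* and *SPRY1* went the other way, with ratios of 1.10 and 1.08, and their log2 fold changes on the log2(FPKM + 1) scale were -0.60, which narrowly missed limma's threshold (adjusted p = 0.0523), and -0.76 (adjusted p = 0.0451). Ratios as high as these were found for 11.9% and 15.3% of genes. The implied lengths of *DUSP4*, *DUSP5* and *SPRY2* differed by less than 1% between the groups. Transcript-level counts were not analysed here, so the transcripts behind these lengths are not named.

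**Figure D4:**
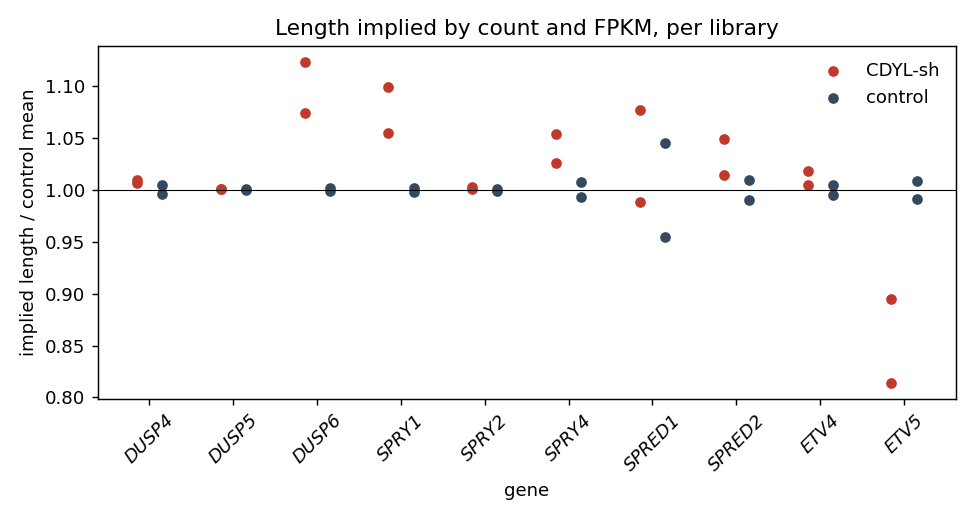
Gene length implied by count and FPKM in each library, divided by the control mean of the gene, *CDYL*-sh in red to the left of control in dark blue. *ETV5* lies at 0.855 on average in *CDYL*-sh, *DUSP6* at 1.10 and *SPRY1* at 1.08.

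The direction of change over all genes moved with base composition, and the 10 genes differ in it. Below 40% GC, 26.1% of all genes tested rose in *CDYL*-sh and 4.04% fell, whereas between 50 and 55% GC the shares were 7.05% higher and 18.6% lower. The 5 genes that fell had a GC content between 44.8% and 52.2%, *DUSP4* one of 51.4%, *SPRED1* the lowest at 36.3% and *ETV4* the highest at 60.6%. When offsets for GC content and length were fitted, *SPRY4* had a log2 fold change of -0.88, *SPRY1* -0.68, *SPRY2* -0.54, *DUSP6* -0.42, *ETV5* -0.29 and *DUSP4* 1.78, and each of these 6 still passed. In that setting *SPRED1* also passed, at -0.45 (adjusted p = 0.00247 from edgeR), and so did *ETV4*, at 0.32 (adjusted p = 0.00548 from edgeR). More genes passed with the offsets over the whole table, 5334 of 16158 (2467 higher and 2867 lower), against 4157 without them. *DUSP5* and *SPRED2* did not pass with the offsets either, at 0.13 and -0.03. Against these, *SPRED1* ranged from an adjusted p of 0.0002 to 0.842 over 19 alternatives and *ETV4* from 4.12e-05 to 0.470.

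Upstream sequence was read from RefSeq promoters on GRCh38.p14, of which 10 windows of 6 of the genes matched (*SPRY1*, *SPRY2*, *SPRY4*, *SPRED1*, *SPRED2* and *DUSP6*). *DUSP4*, *DUSP5*, *ETV4* and *ETV5* were not matched. Each window holds the 250 bases before a start site. The motifs were searched on both strands, CCGGAA as the core of ETS sites, TGACTCA for AP-1 and TGACGTCA for CRE. CCGGAA was present in 2 of the 10 windows, against 14.5% of 35116 windows of all genes, TGACTCA in 0 of 10 against 4.203%, and TGACGTCA in 0 of 10 against 1.65%. Windows of *SPRY2*, *SPRY4* and *DUSP6*, which fell, are shown in lower case with the ETS core in capitals. They lie at chr13:80341127-80341376 for *SPRY2* (first start site), chr5:142324248-142324497 for *SPRY4* and chr12:89352502-89352751 for *DUSP6*, all on the minus strand. The *SPRY4* window lies inside the gene as annotated (chr5:142310427-142326455), so it precedes an internal start site. *SPRY1* fell too. Its first window and the other windows of *SPRY2* hold no match and are not shown.
SPRY2: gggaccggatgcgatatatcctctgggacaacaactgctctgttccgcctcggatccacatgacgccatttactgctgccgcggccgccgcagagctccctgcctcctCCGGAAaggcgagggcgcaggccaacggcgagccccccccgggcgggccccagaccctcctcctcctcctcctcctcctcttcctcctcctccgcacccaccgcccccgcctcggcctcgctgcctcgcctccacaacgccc
SPRY4: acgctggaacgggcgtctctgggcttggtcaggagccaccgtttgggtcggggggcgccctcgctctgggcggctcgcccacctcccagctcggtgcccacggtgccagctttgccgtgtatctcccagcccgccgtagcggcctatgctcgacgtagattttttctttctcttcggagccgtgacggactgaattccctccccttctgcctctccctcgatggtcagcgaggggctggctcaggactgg
DUSP6: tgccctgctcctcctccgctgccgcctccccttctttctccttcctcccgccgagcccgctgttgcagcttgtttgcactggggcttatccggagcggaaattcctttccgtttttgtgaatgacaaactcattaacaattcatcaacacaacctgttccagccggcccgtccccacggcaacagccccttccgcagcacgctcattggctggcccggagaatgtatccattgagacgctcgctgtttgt
SPRY1 site: tgccctccgcagCCGGAAgggggccgcggg
Annotated exons of noncoding transcripts cover 170 bases of the *SPRY4* window and all 250 of the *DUSP6* window, where the antisense gene lies. The last line gives 30 bases around the ETS core before the second start site of *SPRY1*, on the plus strand at chr4:123398307-123398336. The *SPRY1* window with this core lies inside the gene as annotated. Annotated exons cover all 250 of its bases, 201 of them in coding transcripts. The core begins 142 bases before the first start site of *SPRY2* and 67 bases before the second of *SPRY1*. No match says only that these letters are not in the window, and binding was not measured.

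The listed hairpin targets were compared with the transcripts of the 10 genes in GENCODE release 44, to give the longest stretch they share. The sequences are those of the study's supplement, printed to show what was searched, and which of them each *CDYL*-sh library carried is not stated.
CDYL-sh3: GAGATATTGTGGTCAGGAA
Negative control: TTCTCCGAACGTGTCACGTAA
CDYL-sh2: GCAAGATAATGGGAGGAGCATCTGCA
CDYL-sh1: GCGTCTTCTGTTGTGGACTTGACTT
The longest run shared with any transcript of the 10 genes was 9 of 25 bases for CDYL-sh1 (*DUSP5*, *SPRY4* and *SPRED1*), 10 of 26 for CDYL-sh2 (*DUSP5* and *SPRY4*), 8 of 19 for CDYL-sh3 (*DUSP4*, *SPRY1* and *SPRED2*) and 8 of 21 for the negative control (*DUSP5* and *SPRY2*). With *CDYL* transcripts CDYL-sh1 and CDYL-sh2 shared 25 bases each, CDYL-sh3 shared 19 and the negative control 9. Runs as long as the longest in these genes occurred in 21.9% (CDYL-sh1), 8.47% (CDYL-sh2), 43.8% (CDYL-sh3) and 14.8% (negative control) of 20046 canonical coding transcripts. Matches of the hairpin seed alone were not searched.

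The surrounding pathway was described with 6 lists of 84 genes, of which 79 were tested. In *CDYL*-sh 17 of them rose and 13 fell. Over all genes tested, 13.6% rose, 12.1% fell and 25.7% passed in either direction. Of 10 other MAP kinase phosphatases, 3 were lower, 1 was higher and 6 did not pass. *DUSP2*, a nuclear phosphatase, and *DUSP9*, a cytoplasmic relative of *DUSP6*, had log2 fold changes of -0.75 ± 0.15 (SE) and -0.68 ± 0.16 (SE). *DUSP16*, which acts on JNK and p38, had one of 0.50 ± 0.14 (SE). Their median was -0.27, close to the -0.28 of the 10 genes above. Without *CDYL*-sh replicate 1, *DUSP9* and *DUSP16* did not pass (adjusted p = 0.0569 and 0.0687 from edgeR), nor did *DUSP16* without *CDYL*-sh replicate 2 (adjusted p = 0.155 from edgeR).

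Of 10 other negative regulators, 2 were lower and 2 were higher. *CBL*, the ubiquitin ligase that marks activated receptors for degradation, had a log2 fold change of -1.24 ± 0.14 (SE, edgeR adjusted p = 6.87e-06). *LZTR1*, an adaptor for the degradation of RAS proteins, had one of -0.38 ± 0.11 (SE), and *NF1*, which encodes neurofibromin, the partner of the SPREDs, one of 0.52 ± 0.15 (SE). Neither *LZTR1* nor *NF1* passed without *CDYL*-sh replicate 1 (adjusted p = 0.0676 and 0.0693 from edgeR). *LZTR1* also did not pass without *CDYL*-sh replicate 2 (adjusted p = 0.0900), and *NF1*, at a log2 fold change of 0.29, did not pass without control replicate 2 (adjusted p = 0.136). With the offsets for GC content and length *NF1* was at 0.30.

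Of 13 other ETS genes tested, 3 were higher and 1 was lower, with a median log2 fold change of -0.02. Their share past the test was 30.8%, near the 25.7% of all genes tested. *GABPA*, a broadly acting activator, had a log2 fold change of 0.73 ± 0.16 (SE), the epithelial factor gene *EHF* one of 0.96 ± 0.25 (SE) and *ELK3*, a partner of SRF, one of 0.45 ± 0.14 (SE). *EHF* and *ELK3* did not pass without *CDYL*-sh replicate 1 (adjusted p = 0.135 and 0.171 from edgeR), and *ELK3* also not without *CDYL*-sh replicate 2 or control replicate 2 (adjusted p = 0.144 and 0.0676). With the offsets for GC content and length *GABPA* was at 0.47 and still passed. *ETS1* and *FLI1* were under the filter on low counts.

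Of 21 genes of the RAS-ERK cascade itself, 6 rose, 0 fell and 15 missed the threshold of edgeR's test, with a median log2 fold change of 0.09. The share past the test in either direction was 28.6%, close to the 25.7% of all genes tested. By direction, 13.6% of all genes tested were higher and 12.1% lower, while all calls in this list were higher. At an unadjusted p under 0.05, edgeR gave 7 higher and 1 lower of these 21 genes, against 6093 of all 16158 genes in either direction. DESeq2 and limma-voom gave 0 lower after adjustment. The genes that rose included the kinase gene *RPS6KA3*, an ERK substrate, at 0.75 ± 0.17 (SE), *NRAS* at 0.54 ± 0.12 (SE) and the RAS exchange factor gene *SOS1* at 0.63 ± 0.14 (SE). Without *CDYL*-sh replicate 1, *RPS6KA3* did not pass (adjusted p = 0.0545 from edgeR). These 3 genes have a GC content between 37.4% and 40.6%, and with the offsets for GC content and length their log2 fold changes were smaller, at 0.50 for *RPS6KA3*, 0.31 for *NRAS* and 0.39 for *SOS1*, each still past the test. On the log2(FPKM + 1) scale *SOS1* was at 0.25 (limma adjusted p = 0.396). Of 11 growth factor receptors tested, 2 were lower and 1 was higher, which is 27.3% past the test and again near the share of all genes. The receptor genes *FGFR1* and *FGFR3* had log2 fold changes of -0.53 ± 0.10 (SE) and -0.67 ± 0.13 (SE). *MET*, the hepatocyte growth factor receptor gene, had one of 1.14 ± 0.22 (SE) in counts, but 0.14 on the log2(FPKM + 1) scale (limma adjusted p = 0.825).

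Of 14 other genes used as ERK outputs, 4 rose, 5 fell and 5 missed the threshold, so these too were divided. The share past the test was 64.3%, against 25.7% of all genes tested. *IER3*, an immediate-early survival gene, and the AP-1 subunit gene *FOSL1* rose, with a log2 change of 1.10 ± 0.15 (SE) for the first and 0.67 ± 0.14 (SE) for the other. *EPHA2*, a receptor tyrosine kinase gene, had a log2 fold change of -0.69 ± 0.10 (SE). The study also picked *EPHA2* from these libraries. It measured selected genes by RT-qPCR as well, and its supplement lists primers for *EPHA2*, but its text gives no value for that gene. Over the 6 lists 38.0% of the tested genes passed, against 25.7% of all genes, and the lists were chosen for this pathway with earlier results known. The number higher was 8 without *CDYL*-sh replicate 1, and the number lower was 8 without *CDYL*-sh replicate 2.

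**Figure D5:**
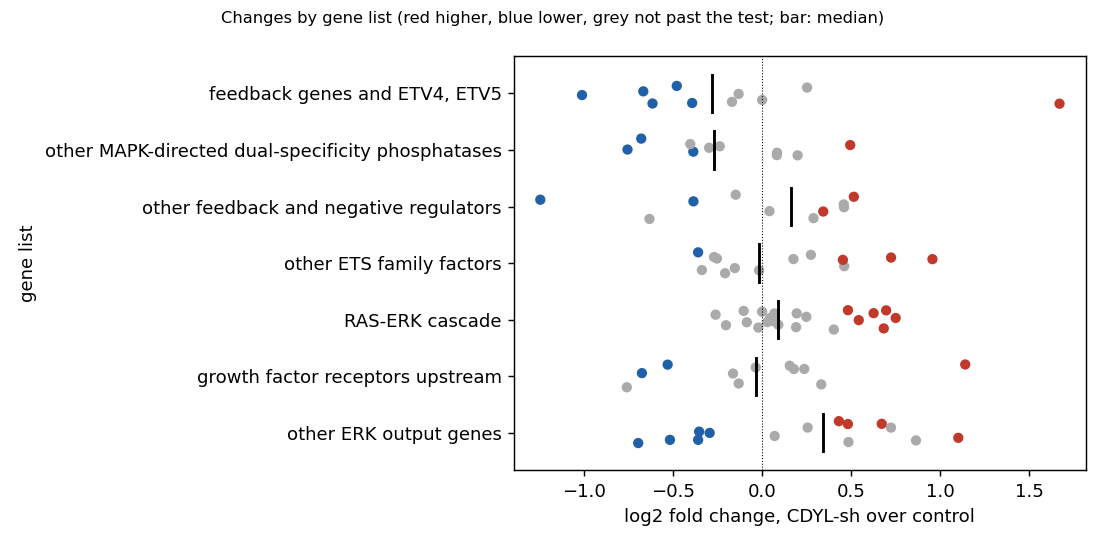
Change in each gene on the log2 scale (*CDYL*-sh over control) by list, coloured red where higher and blue where lower past the test, grey otherwise, and a black bar at the median of the list. The feedback genes with *ETV4* and *ETV5* have a median of -0.28, the other phosphatases -0.27 and the RAS-ERK cascade 0.09.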

How the data were processed

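RNA-seq was analysed in 2 *CDYL*-sh and 2 control libraries of Ishikawa cells. Per the paper's methods and the submitters' notes, the authors used TopHat to align reads that passed quality control (build GRCh38.p10), and the notes also name RSEM and edgeR. The deposited expected counts are estimated reads per gene, and the authors' deposited FPKM are scaled for depth and for gene length. The annotation release is not given in the sources used here. Symbols were found for 98.1% of 58522 identifiers. Gene positions, lengths and base composition were taken from GENCODE release 44 on GRCh38.

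Counts were rounded, filtered with filterByExpr, scaled by TMM and tested with edgeR 4.0.16 (glmQLFit and glmQLFTest, prior count 2) in R 4.3.3. The Benjamini-Hochberg adjustment covered 16158 genes, and the threshold was 0.05. Standard errors were the absolute log2 fold change divided by the square root of F, and intervals are at 95%. FPKM were tested with limma 3.58.1 on log2(FPKM + 1) or log2(FPKM + 0.1), for genes with a mean of at least 0.5, and fold changes on that scale understate the change of low genes. DESeq2 1.42.0, limma-voom, other scalings and filters, a replicate block, offsets for GC content and length, and each library left out were alternatives. The script was tested on simulated counts with the same dispersion in every gene and no trend with GC content. That test therefore did not cover a spread that differs between genes, or a GC trend. Named genes were the 10 genes, *CDYL* and the 3 genes with the lowest adjusted p in each list. Genes and lists were chosen with earlier results of these data known.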

Additional observations from a re-analysis of the deposited data

How the results depend on the processing

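The 4157 genes past the test overall were 461 or 507 with limma on log2 FPKM and a pseudocount of 1 or 0.1 (224 and 255 higher, 237 and 252 lower). With limma on log2(FPKM + 1) and no filter, 0 of 25884 genes passed the adjusted threshold, against 4572 at an unadjusted p under 0.05. The numbers of the 10 genes higher and lower were 0 and 3 with limma on log2 FPKM under either pseudocount, and 0 and 0 with no filter, where 6 had an unadjusted p under 0.05. *CDYL* itself, at -2.05, then had an adjusted p of 0.141. The other lists had 1 gene higher with either pseudocount, 1 or 2 lower with a pseudocount of 1 or 0.1, and 0 and 0 with no filter, where 22 had an unadjusted p under 0.05. *SPRY1*, *SPRY2* and *SPRY4* passed in 18 of 19 alternatives and *DUSP4* and *DUSP6* in the 16 on counts.

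Libraries of the groups share the numbers 1 and 2. Over 11127 genes the differences between replicates correlated at 0.177 across groups, which does not show pairing. With the replicate block 2 of the 10 genes were higher, since *ETV4* passed (log2 fold change 0.25, adjusted p = 0.00764 from edgeR), and 5 were lower. More genes passed over the whole table with the block, 5393 (2812 higher and 2581 lower) against 4157 in the main test. With the offsets for GC content and length, alone or with the replicate block, 2 were higher and 6 were lower, and the block with offsets gave 3317 lower genes overall and 26 higher and 20 lower genes in the other lists.

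Leaving out 1 library gave between 2082 (without *CDYL*-sh replicate 2) and 4006 genes past the test, 1159 to 2078 higher and 923 to 1928 lower. Of the 10 genes 1 was higher each time and 4 or 5 were lower. The other lists had between 8 and 16 genes higher and between 8 and 12 lower. *CDYL* stayed between -2.42 and -2.17. *DUSP5*, which never passed, had the other sign with RLE scaling (-0.0046), no filter (-0.011), at least 10 counts in every library (-0.0039), DESeq2 (-0.0051), and without *CDYL*-sh replicate 1 (-0.028) or control replicate 1 (-0.26), and 0.30 without control replicate 2. *SPRED1* did so without control replicate 1 (0.050), and was -0.30 without control replicate 2. Depth was lowest in *CDYL*-sh replicate 2, and with 2 libraries a group no test for an outlying library applies.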
